A study of Mus musculus with 3 samples.

Results

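Krüppel-like factors (KLFs) are transcription factors that bind GC-rich and CACCC sequences through zinc fingers at their C-terminus. In endothelium the best known members are Klf2 and Klf4, which are induced by laminar blood flow and promote an antithrombotic and anti-inflammatory state, while other members take part in growth, stress responses, metabolism and hormone signaling. The 10 members described here, Klf2, Klf3, Klf4, Klf5, Klf6, Klf7, Klf9, Klf10, Klf11 and Klf13, were taken by symbol among 19938 measured genes. A gene was measured by a probe set whose annotation named that gene alone, and where a gene had several such probe sets the one with the highest mean was used. All 10 members had a single probe set each, so the values played no part in the choice of probe set.

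RNA came from GFP positive cells of the adult renal medulla of male FVB/N mice that carry the Tg(TIE2GFP)287Sato transgene, in which the Tie2 promoter drives green fluorescent protein which allows endothelial cells to be sorted by flow cytometry after Collagenase A digestion. There were 3 arrays, each from a pool of 2 kidneys, and all belonged to 1 group without treatment, so no fold change between conditions is given. Tie2 promoter activity marks endothelium as a whole, so descending and ascending vasa recta and capillaries were measured together, and fewer expressing cells cannot be told apart from less RNA per cell. All 10 endothelial markers listed, among them Kdr, the main receptor of VEGF, and Eng, the coreceptor endoglin, were called above the background limit defined below. So were 49.8% of all genes.

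The levels are log2 expression values of an Affymetrix mouse whole-transcript array. They were set against a pair of limits. The first was 100 units (log2 6.64), the number at which the study filtered raw levels. That its raw scale is the one deposited was inferred and is not stated, so this limit may not be the same filter. The second was a background limit of 7.94 (246 units), the 95th percentile of 1240 probe sets for olfactory, vomeronasal and bitter taste receptors, genes that are mostly used by sensory cells. Differences from each limit were tested with limma (two-sided, Benjamini-Hochberg adjustment over all genes, threshold 0.05). Because the affinity of probe sets differs, levels of different genes cannot be ranked against each other, and a gene under a limit is not shown to be silent.

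All 10 Krüppel-like factors were above both limits in every array, as were 85.4% of all genes for 100 units and 55.0% for the background limit. Their mean log2 levels lay 0.64 to 3.07 above the background limit, and limma called 10 of 10 above it, with adjusted p-values from 2.81e-05 to 0.0013. Of all genes tested, 49.8% were called above the background limit and 83.0% above 100 units, so that most genes passed 100 units as well. The members were named with earlier results of these data known and some family members under the limit were not among them, so the count describes these genes and not the family. With the background limit raised to the 99th percentile of the receptor probe sets, 7 of 10 were called above it, against 29.2% of all genes. Klf5, Klf10 and Klf13 were not called there.

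**Figure D1:**
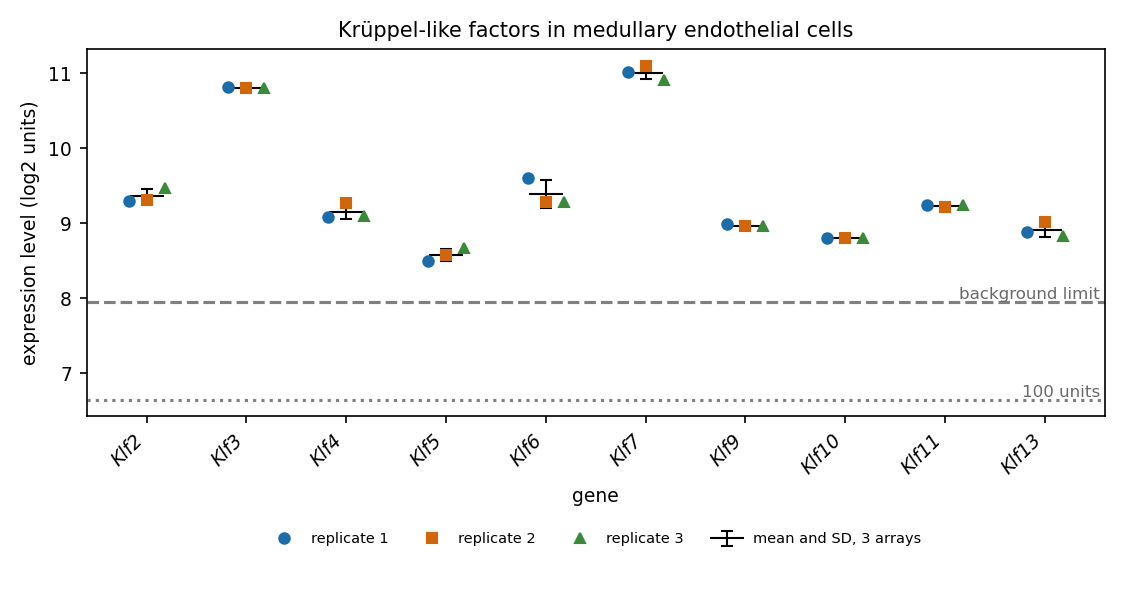
Expression level (y axis, log2 units) of the 10 Krüppel-like factors (x axis) on 3 arrays, 1 point per array, with the mean and SD as a black bar; the dotted line marks 100 units (6.64) and the dashed line the background limit (7.94). Every point lies above both lines, with Klf5 between 8.50 and 8.66.

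Klf2, the flow-induced factor that keeps endothelium quiescent, had log2 levels of 9.30, 9.31 and 9.47 in replicates 1, 2 and 3. It was highest in replicate 3, and the other arrays were nearly equal. Its mean of 9.36 ± 0.10 (SD, n = 3) lay 1.42 above the background limit, with a 95% interval of 1.22 to 1.62 and an adjusted p of 0.00013 by limma. Klf4, its closest partner in endothelium and also one of the factors used to reprogram cells to pluripotency, stood at 9.09, 9.27 and 9.10, highest in replicate 2. The mean of 9.15 ± 0.10 was 1.21 above the background limit (95% interval 1.01 to 1.41, adjusted p = 0.000216 by limma). The extremes of the arrays differed 1.13-fold for Klf2 and 1.14-fold for Klf4, and in each gene a different array was the high one.

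Sequence upstream of Klf2, Klf4 and Klf3 is shown. For Klf2 and Klf4 the reason is that flow is known to act on both through the kinases MEKK3, MEK5 and ERK5 and MEF2 factors. The genes of these kinases and Mef2a, Mef2c and Mef2d were measured here. Klf3 is shown because its window held the most CACCC and GGGCGG matches of the members. The sequences are the 250 bases before the RefSeq gene start, 5′ to 3′ on the strand of the gene, in build GRCm38.p6. Capitals mark matches, on either strand, to CACCC, to GGGCGG and to the MEF2 consensus. The serum response element, also searched on both strands, had no match in any member window. Matches may overlap.
Klf2, chr8:72318812-72319061, plus strand: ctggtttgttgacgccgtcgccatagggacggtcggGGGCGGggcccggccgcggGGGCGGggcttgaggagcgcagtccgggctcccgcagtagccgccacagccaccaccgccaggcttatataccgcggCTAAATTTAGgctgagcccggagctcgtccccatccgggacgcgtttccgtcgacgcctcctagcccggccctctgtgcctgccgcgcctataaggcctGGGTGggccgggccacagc
Klf3, chr5:64803271-64803520, plus strand: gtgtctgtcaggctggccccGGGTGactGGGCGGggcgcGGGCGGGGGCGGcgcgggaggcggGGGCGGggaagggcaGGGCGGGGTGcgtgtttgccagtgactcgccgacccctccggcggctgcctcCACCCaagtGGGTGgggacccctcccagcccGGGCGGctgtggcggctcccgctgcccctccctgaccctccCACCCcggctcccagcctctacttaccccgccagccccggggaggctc
Klf4, chr4:55532476-55532725, minus strand: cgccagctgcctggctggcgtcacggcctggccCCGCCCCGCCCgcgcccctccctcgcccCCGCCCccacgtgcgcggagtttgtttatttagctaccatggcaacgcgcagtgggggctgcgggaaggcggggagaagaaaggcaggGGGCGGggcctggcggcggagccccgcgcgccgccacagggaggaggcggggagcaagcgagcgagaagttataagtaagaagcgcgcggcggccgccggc

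A window was at hand for 8 of the 10 members, Klf5 and Klf10 being the others. The MEF2 consensus was matched in 1 of these windows, that of Klf2, from 118 to 109 bases before the start, and in 2.92% of the 32851 windows of this length in the table. GGGCGG was matched in 7 of the 8 windows, against 32.7% of all windows, with 2 matches in Klf2, 4 in Klf4 and 6 in Klf3. CACCC was matched in 5 of the 8, with 5 matches in Klf3 and none in Klf4, against 52.0% of all windows. The serum response element was matched in 1.47% of all windows. The member windows were rich in G and C, from 59.2% to 78.4%, where the median of all windows was 52.4%. A GC-rich window holds such letters more often whatever its use, and a match is no evidence of binding.

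Klf6, an early response factor of injured endothelium, had the widest spread among the members. Its level was 9.60 in replicate 1 and 9.28 in replicates 2 and 3, a 1.25-fold difference. The mean of 9.39 ± 0.18 (SD, n = 3) was 1.45 above the background limit (95% interval 1.18 to 1.72, adjusted p = 0.000292 by limma). A wider range over the arrays was seen in 13.5% of all genes. Klf5, which promotes growth of smooth muscle and epithelium and is well known from the collecting duct, had levels of 8.50, 8.57 and 8.66 in replicates 1, 2 and 3. Its mean of 8.58 ± 0.08 lay 0.64 above the background limit (95% interval 0.45 to 0.83, adjusted p = 0.0013 by limma). At the 99th percentile limit Klf5 lay 0.15 below, a difference that did not pass the test (adjusted p = 0.101 by limma). Klf7, a relative of Klf6 that is known for axon growth and adipocyte differentiation, was at 11.02, 11.09 and 10.91, highest in replicate 2. The mean of 11.01 ± 0.09 was 3.07 above the background limit (adjusted p = 2.86e-05 by limma).

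Klf3, a repressor that recruits the corepressor CtBP and is studied in red cell, B cell and fat cell differentiation, hardly moved between arrays. It had a level of 10.81 in every array, with a spread of 0.0013 (SD, n = 3), and lay 2.87 above the background limit (adjusted p = 2.81e-05 by limma). The members that recruit the corepressor Sin3a were similarly even with 1 exception. Klf9, a target of glucocorticoid and thyroid hormone, was at 8.98, 8.96 and 8.96. Klf10, also known as TGF-beta inducible early gene, had the value 8.80 in all 3 arrays. Klf11, its close relative, which is linked to insulin gene control, stood at 9.24, 9.22 and 9.24. Klf13, known for chemokine control in T cells, was the exception, with 8.89 in replicate 1, 9.02 in replicate 2 and 8.83 in replicate 3, a 1.14-fold range. The distances from the background limit were 1.03 for Klf9, 0.86 for Klf10, 1.29 for Klf11 and 0.97 for Klf13, and all 4 passed the limma test, with Klf13 having the largest adjusted p of these at 0.000384.

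A spread of 0 does not mean an exact measurement. With 3 arrays, median polish, the last step of RMA, can return the same level for several of them. Over all genes 46.3% had the same value in all arrays and 29.7% had 2 different values. Of the members, 1 had the same value throughout, 4 had 2 different values and 5 had 3. The median SD over the arrays was 0.086 for the members and 0.0079 over all genes. Among the lists below, those of other cell types apart, it was higher for turnover genes (0.162), endothelial markers (0.128), cofactors (0.115) and reported targets (0.106). It was lower for the TGF-beta (0.062), dissociation (0.055) and upstream genes (0.021). For the other KLF and SP factors and the glucocorticoid and clock genes it was 0. A spread of this size was thus not particular to the members. The range over the arrays exceeded 0.15 log2 units in 6 of 10 members and in 25.6% of all genes, while it was under 0.03 in 4 of 10 members and in 54.7% of all genes. The 6 members that varied were Klf2, Klf4, Klf5, Klf6, Klf7 and Klf13. Because tied values would make the error look too small, the prior variance of the limma fit was taken from genes with 3 different values. The variance of each gene still entered its own error. Klf3 and Klf10 had a standard error of 0.0591, against 0.0682 to 0.0729 in the members with 3 different values. Intervals and p-values of members with tied values may therefore still be too small.

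**Figure D2:**
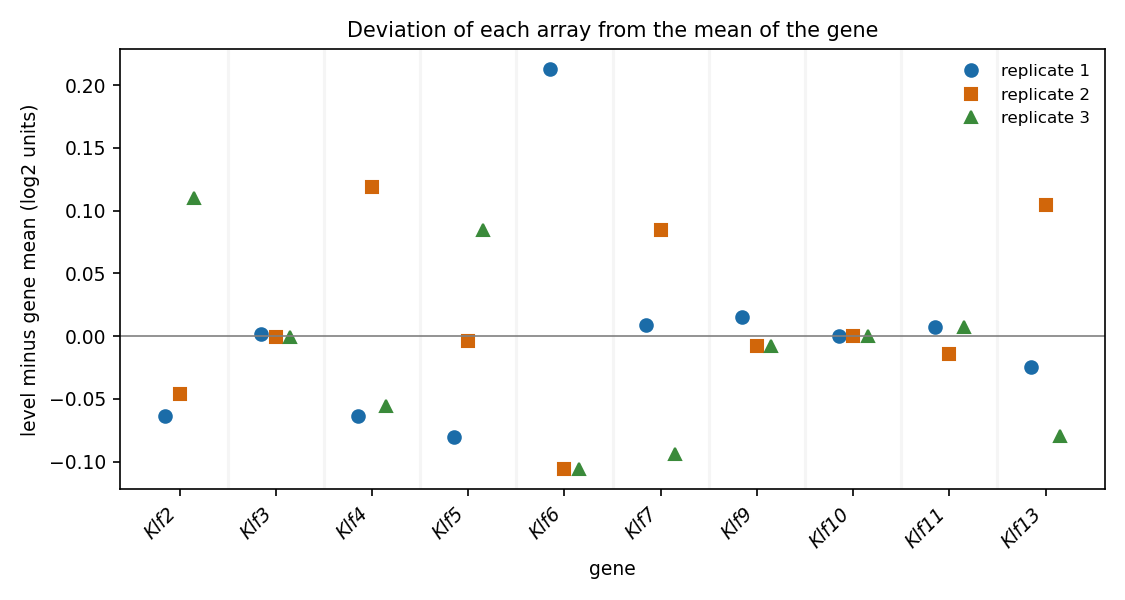
Level of each array minus the mean of the gene (y axis, log2 units) for the 10 Krüppel-like factors (x axis), 1 point per array. Klf6 was high in replicate 1, Klf4, Klf7 and Klf13 in replicate 2 and Klf2 and Klf5 in replicate 3, whereas Klf3, Klf9, Klf10 and Klf11 stayed within 0.03 over the arrays.

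The members did not share a high or a low array. The highest array was replicate 1 for 3 members, replicate 2 for 3 and replicate 3 for 2, and the others had ties at the top. The median difference of 1 array from the mean of the others was 0.0012 in replicate 1, -0.0036 in replicate 2 and -0.0063 in replicate 3 over the members, and 0 in each array over all genes. These shifts were small beside the median SD of the members, and the sign of that in replicate 1 turned with quantile normalization, to -0.031, and without replicate 3, to -0.0087. With 3 arrays of 1 group no array can be tested against the rest.

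Some markers of other cell types differed between the arrays. The median SD was 0.289 over the thick ascending limb list and 0.119 over the myeloid list, against 0.086 over the members. It was 0.128 over the endothelial markers, and 0.019 or less over the other 5 lists of other cell types. The summed raw level of 7 thick ascending limb genes was 5685, 3348 and 2497 units in replicates 1, 2 and 3. Umod, the Tamm-Horsfall protein of that segment, was at 11.61, 10.40 and 9.49, and Slc12a1, its sodium, potassium and chloride transporter, at 9.68, 8.07 and 7.81. Both were named for the largest range of the list, and both were highest in replicate 1, the array in which Klf6 was high. The list as a whole did not share this. In replicate 1, 3 of the 7 genes were above the mean of the other arrays, 2 below and 2 equal to it. The summed level of the 10 endothelial markers was highest there as well, at 56483 units against 50093 and 51650, with 7 of the 10 above the mean of the other arrays. Of the 7 thick ascending limb genes, 4 were called above the background limit and 1 below. Over all genes 49.8% were called above it and 37.8% below. The summed level of 10 myeloid and MHC class II genes was 4220, 7800 and 4606 units, with Cd74, the invariant chain, at 9.27, 10.93 and 9.53 and H2-Ab1 at 9.69, 10.66 and 9.38. The sum and these genes were highest in replicate 2, as were Klf4, Klf7 and Klf13. Of the 10 genes, 5 were above the mean of the other arrays in replicate 2, 1 below and 4 equal to it. H2-Eb1, named after its values were seen, was highest in replicate 3, at 8.40, 8.58 and 8.87. In that list 4 of 10 were above the background limit and 4 below, among the latter Ptprc, the common leukocyte antigen, at 6.68 in every array, and Adgre1, a macrophage marker, at 6.18, both chosen after their values were seen. The part of other cell types, or of the endothelial share, in the levels of Klf6, Klf4, Klf7 and Klf13 was not tested.

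The collecting duct sum was 2785, 2693 and 2441 units over 8 genes, of which 5 were above the background limit and 2 below. Each count in this paragraph is to be read beside the 49.8% of all genes called above and the 37.8% called below. The collecting duct sum was lowest in replicate 3, where Klf5 was highest. Aqp2, the vasopressin-regulated water channel, was at 9.67, 9.67 and 9.27 in the same order of arrays, and Atp6v1g3, a proton pump subunit of intercalated cells, at 7.92, 7.69 and 7.38. Smooth muscle and pericyte genes were at a summed level of 1739, 1722 and 1709 units, with 0 of 8 above the background limit by limma and 4 below. At an unadjusted p under 0.05 the counts were 0 above and 4 below, and Rgs5, a pericyte marker, stood at 7.94, 7.61 and 7.61 and was called below without replicate 1 (adjusted p = 0.014 by limma). The sums of the proximal tubule (1518 to 1522 units), lymphocyte (973 units) and fibroblast lists (1205 to 1206 units) were nearly the same in all arrays, with 2 of 8, 1 of 7 and 2 of 6 genes above the background limit. Among them Slc34a1, the proximal phosphate transporter, was at 8.40 in all arrays, Cd3e of the T cell receptor complex at 8.52, and the collagen gene Col1a1 at 8.81. The share of these cells in the Krüppel-like factor levels was not tested.

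Of the rest of the family, KLF genes fell on both sides of the background limit. Klf12, a CtBP-binding repressor, had levels of 9.03, 9.07 and 9.03, and Klf16, a repressor of the Klf9 group, 8.77, 8.96 and 8.96. Klf14, a maternally expressed regulator of fat tissue, was at 8.75 in all arrays. Klf15, a glucocorticoid target in metabolism, was close to the limit with 8.13, 8.13 and 8.18 and was called 0.21 above it (95% interval 0.04 to 0.37, adjusted p = 0.0329 by limma). Without replicate 3 this call was lost (adjusted p = 0.0505 by limma). These 4 of 7 were called above the limit and 3 below it, where 37.8% of all genes were. Those below, named after their values were seen, were Klf1, the erythroid factor, at 7.69 in every array, Klf8 at 7.17, 7.21 and 7.20, and Klf17, known from early embryos, at 6.95, 7.02 and 7.02.

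The SP factors, which share the zinc fingers of the family, also fell on both sides. The broadly used factors Sp1, at 9.68, 9.64 and 9.64, Sp3, at 10.29 in all arrays (mean 8.32 by its lowest probe set), and Sp4, at 9.22, 9.22 and 9.30, were called above the background limit. The factors of limb, tooth and bone development did not pass it. Sp6 at 7.07, Sp7 at 7.22 and Sp8 at 7.21 were called below, and Sp5 at 7.86 and Sp9 at 7.90 were not called, with the same value in every array for each of these 5. Together 7 of 15 other family members were called above the background limit, near the 49.8% of all genes, and 6 of 15 without replicate 3.

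**Figure D3:**
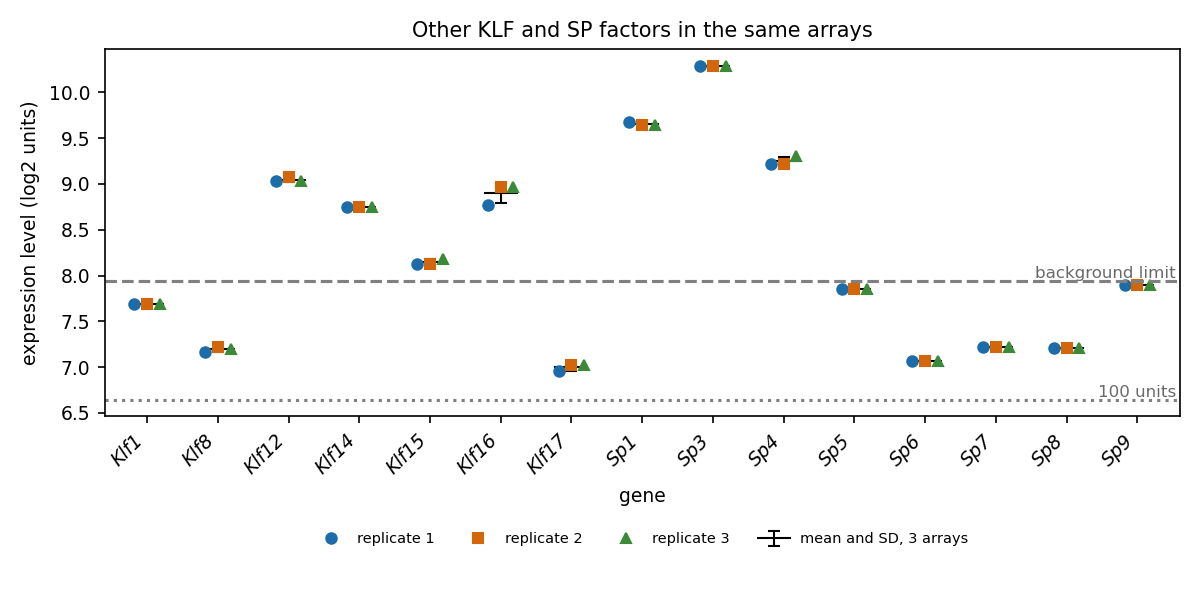
Expression level (y axis, log2 units) of 7 other KLF genes and 8 SP genes (x axis), 1 point per array, with the mean and SD over 3 arrays as a black bar; the dotted line marks 100 units (6.64) and the dashed line the background limit (7.94). Klf1, Klf8, Klf17, Sp6, Sp7 and Sp8 were called below the dashed line, and Sp5 and Sp9 lie just under it.

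The genes known to act upstream of Klf2 and Klf4 were all above the background limit, 22 of 22, where 49.8% of all genes were. The kinase cascade was represented by Map3k2 (MEKK2), with levels of 9.08, 9.04 and 9.13, and Map3k3 (MEKK3), with 9.66, 9.69 and 9.69. Map2k5 (MEK5) stood at 9.22 in every array and Mapk7 (ERK5) at 9.41, 9.45 and 9.45. The MEF2 factors, which bind the motif marked in the Klf2 sequence and are named for that reason, were at 11.77, 11.47 and 11.77 for Mef2a, at 11.08, 10.92 and 10.92 for Mef2c and at 9.59 in all arrays for Mef2d. The cerebral cavernous malformation genes, whose loss is known to raise Klf2 and Klf4, were at 10.09 in all arrays for Krit1, at 9.26 for Ccm2, and at 11.35, 11.33 and 11.00 for Pdcd10. Heg1, the receptor that anchors the complex, was at 12.00, 12.00 and 11.95. Probe sets of the same gene disagreed here, since the lowest one gave a mean of 8.97 for Mef2d, 9.26 for Pdcd10 and 9.21 for Heg1, each still called above. Krit1, Ccm2, Pdcd10, Heg1 and the MEF2 genes were all named after their values were seen. The list shares Pecam1, Cdh5 and Kdr with general endothelial genes.

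Genes reported as endothelial targets of Klf2 or Klf4 were above the background limit in 21 of 30 cases, against 49.8% of all genes, and below in 3. With 1 array left out the first count ran from 19 without replicate 3 to 23 without replicate 1. Nos3, the endothelial nitric oxide synthase, stood at 9.02 in all arrays. Thbd, the anticoagulant receptor thrombomodulin, was at 10.77, 10.53 and 10.65. S1pr1, the sphingosine-1-phosphate receptor, was at 12.00, 11.70 and 11.93. Ptgds, a prostaglandin D synthase, was called with 8.11, 8.13 and 8.13 (adjusted p = 0.0412 by limma) but not without replicate 2 (0.0505) or replicate 3 (0.0544). These were the first genes called above in list order, and the factors are known to raise them. The list also holds genes that the factors are known to repress, so the count mixes both kinds. The 3 genes called below, named after their values were seen, were F3, Adamts4 at 7.65, 7.66 and 7.66 and Adamts5 at 7.42 in all arrays. A further 6 of the 30 genes were not called. Among these was Nqo1, named after its values were seen, at 7.89, 8.72 and 8.55 (adjusted p = 0.0906 by limma).

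Among the genes that Klf2 or Klf4 are known to repress, levels were on both sides. The following were named after their values were seen. Vcam1, a leukocyte adhesion molecule, was at 10.21, 11.17 and 10.82, and Sele, E-selectin, at 8.14, 8.56 and 8.23. Edn1, the vasoconstrictor endothelin, was at 9.07, 9.51 and 9.29. These 3 were called above the background limit, Sele not without replicate 3 (adjusted p = 0.08 by limma), and were highest in replicate 2 and lowest in replicate 1. Others did not follow that order. Angpt2, the Tie2 ligand angiopoietin-2, was at 11.04, 10.91 and 11.27, lowest in replicate 2, and Icam1, another adhesion molecule, at 9.36 in all arrays. F3, tissue factor, at 7.01 in every array, was called below, and Ccl2, the monocyte chemokine, at 7.93, 8.10 and 7.97, was not called. Klf2 was highest in replicate 3 and Klf4 in replicate 2, and 3 arrays do not allow a relation between regulator and target to be tested.

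Cd59a, a complement inhibitor from the same list of reported targets and named after its values were seen, varied widely. It was at 7.15 in replicate 1 but at 9.98 and 9.71 in replicates 2 and 3. As the value in replicate 1 was under the background limit, the range is given as at least 4.11-fold, the highest array over that limit. With this spread it was not called on either side of the background limit (adjusted p = 0.212 by limma), and without replicate 1 it was called above (adjusted p = 0.0018).

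**Figure D4:**
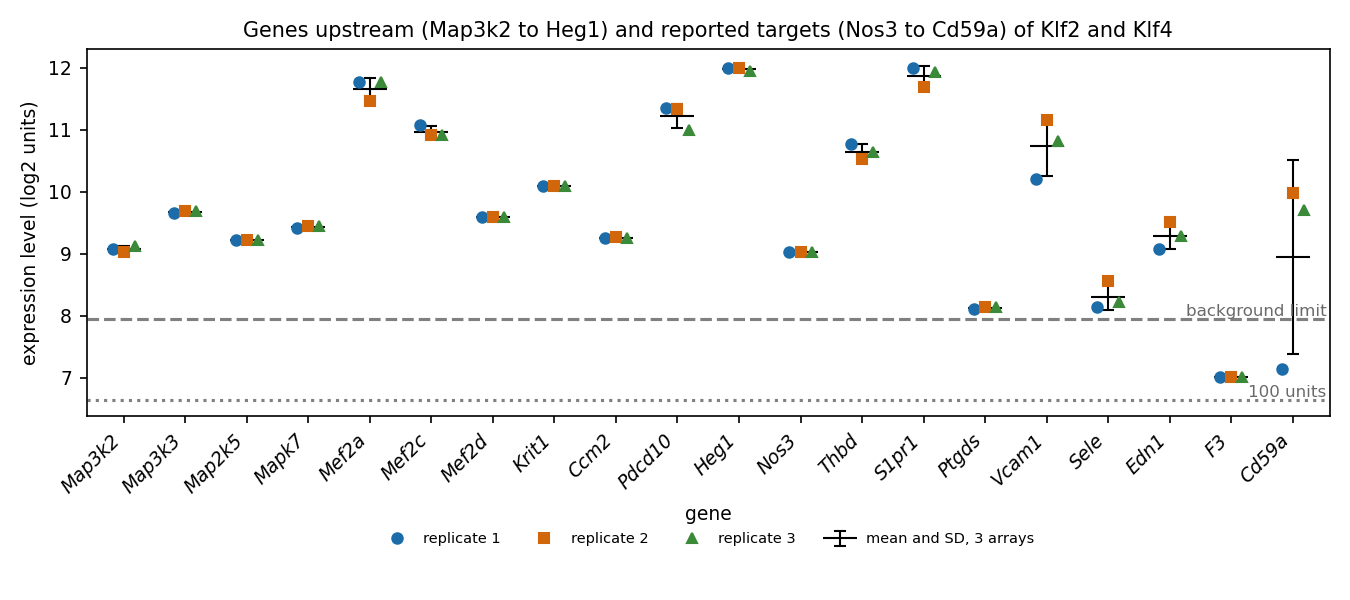
Expression level (y axis, log2 units) of 11 genes upstream of Klf2 and Klf4 and 9 reported targets (x axis), 1 point per array, with the mean and SD over 3 arrays as a black bar; dotted line, 100 units (6.64); dashed line, background limit (7.94). Upstream genes lie above the dashed line in every array, F3 lies below it, and Cd59a lies below it in replicate 1 alone.

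Of 15 cofactors of the family 13 were called above the background limit by limma, against 49.8% of all genes, and 0 below, also 0 below at an unadjusted p under 0.05. Ctbp1, a corepressor of Klf3, was at 9.95, 9.60 and 9.50, and Ctbp2 at 9.34, 9.34 and 9.36. Sin3a, the corepressor of the Klf9, Klf10, Klf11 and Klf13 group, was at 9.88, 9.88 and 9.91, and Sin3b at 9.15, 8.96 and 8.96. The histone deacetylase Hdac3 at 8.16, 8.05 and 8.41 and the LIM protein Fhl3 at 8.03, 8.63 and 7.97 were not called, but Hdac3 was called above once replicate 2 was left out (adjusted p = 0.0458 by limma). Of 12 genes of protein turnover 11 were above the limit, again against 49.8%. They included the ubiquitin ligases Wwp1 at 9.79, 9.79 and 9.88, Wwp2 at 8.77, Smurf1 at 9.75 and Fbxw7 at 9.44, 10.67 and 10.26. The mean of Fbxw7 was 10.12 by this probe set, 8.41 by its lowest one and 9.27 over its probe sets, and it was called above in each case. Fbxo32, at 8.36, 8.11 and 8.11, was not called (adjusted p = 0.0503 by limma).

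Genes of hormone and growth factor pathways that are known to raise single members were also measured. Of 13 genes of glucocorticoid signaling and the clock, which act on Klf9 and Klf15, 10 were above the background limit, and 1 below. Over all genes 49.8% were above. The list holds targets of the hormone as well as receptors, so this is not a count of inputs. The glucocorticoid receptor Nr3c1 was at 10.58 and the glucocorticoid target Tsc22d3 at 8.83, both the same in all arrays, the mineralocorticoid receptor Nr3c2 at 8.93, 8.81 and 8.93, and the kinase Sgk1 at 10.31, 9.96 and 9.84. Fkbp5 at 7.94, 7.95 and 7.94 and Per2 at 8.09 were not called, and the thyroid hormone receptor Thrb at 7.51 was called below. For TGF-beta, which induces Klf10 and Klf11, 10 of 12 genes of the pathway were above, against the same 49.8%, and 1 below. The receptors Tgfbr1 (9.12, 9.19 and 9.12), Tgfbr2 (10.97, 10.79 and 10.90) and Acvrl1 (10.85 in all arrays) were above it. The ligand Tgfb1 varied 2.40-fold, with 9.23, 10.17 and 8.91. The equal values of Klf10 may come from median polish, as described above, and a relation between the 2 genes was not tested. Tgfb3 (7.12, 7.12 and 7.21) was called below and Tgfb2 (7.84, 7.97 and 7.97) was not called.

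Enzymatic dissociation is known to induce immediate early genes, and Klf2, Klf4 and Klf6 can respond with them. Of 16 measured genes of that kind, 11 were above the background limit, where 49.8% of all genes were, and 1, Myc, below. Jun was at 11.38, 11.04 and 11.17, Junb at 8.24 in all arrays, Jund at 9.54 and Egr1 at 9.09, 9.43 and 9.09. Fos at 8.02, Fosb at 7.80, 7.80 and 7.89, Nr4a1 at 7.85 and Atf3 at 7.97, 8.28 and 8.28 were not called, Atf3 being called above without replicate 1 (adjusted p = 0.0138 by limma). Myc was at 7.49, 6.88 and 6.88. Jun and Myc were highest in replicate 1, as Klf6 was, but the order of Myc is that of a gene under the background limit. Egr1 was highest in replicate 2, as Klf4 was. Hspa1a, named after its values were seen, had the widest range of the list and was highest in replicate 3, at 9.08, 9.15 and 9.90. In 4 of the 16 genes all arrays had the same value, so the list did not share a high array. The summed level of the list was 10786, 10286 and 10748 units in replicates 1, 2 and 3. No undigested sample was measured here, so the part of dissociation in the levels of Klf2, Klf4 and Klf6 was not tested.

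**Figure D5:**
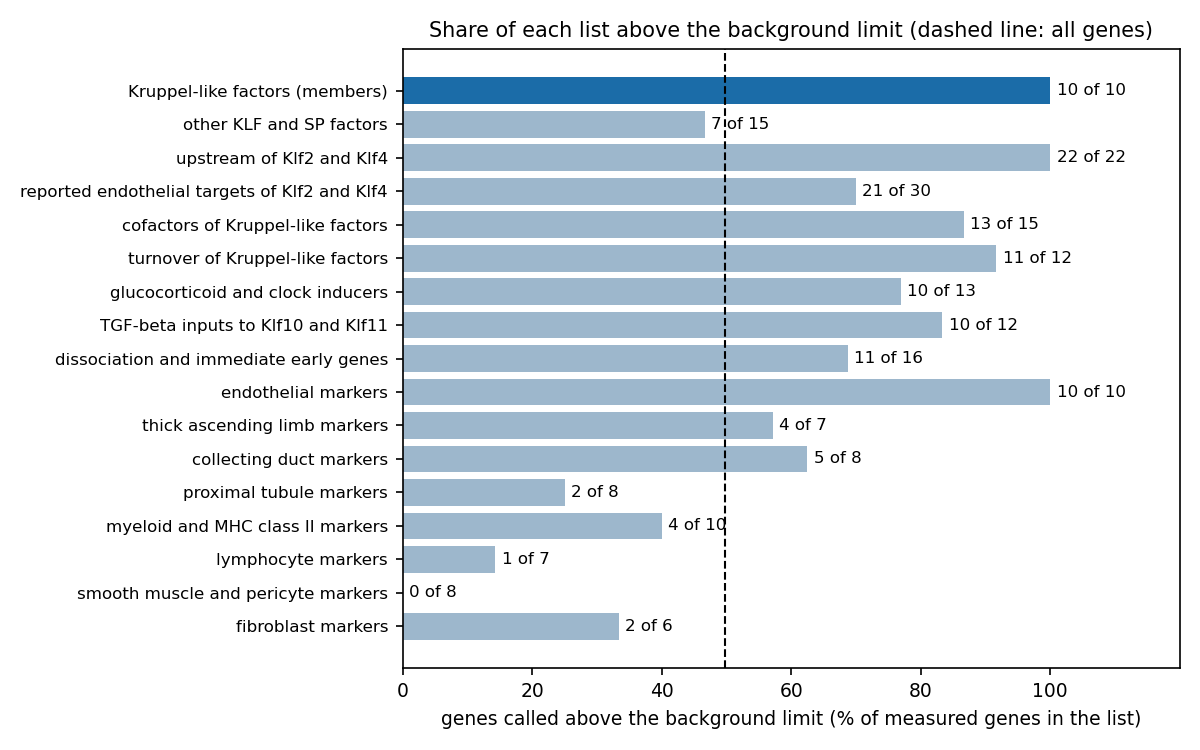
Share of each gene list called above the background limit by limma (x axis, % of measured genes of the list), with the count beside each bar; the dashed line is the share of all genes, 49.8%. All 10 Krüppel-like factors and all 22 upstream genes were called, and 0 of 8 smooth muscle and pericyte genes.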

How the data were processed

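RNA of 3 pools was amplified once with the NuGEN Ovation Pico kit, labelled with biotin and hybridised to 1-colour Affymetrix arrays. The deposited values are log2 levels per probe set, made by the authors with Affymetrix Expression Console (per the labels) and RMA with GeneSpring (per the study). The log2 scale was inferred from their range (3.55 to 14.4), and the genome build was not stated by any source consulted. RMA can give equal values to several arrays.

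Of 35557 probe sets, 21789 named 1 gene, 1621 several and 12147 none. Names were updated by Entrez identifier to RefSeq GRCm38.p6 (21698 matched), giving 19938 genes. One-group limma fits (two-sided, adjusted over all genes after Benjamini and Hochberg, threshold 0.05) tested the mean level against log2(100) and the background limit. Variances were squeezed to a prior from genes with 3 different values. The step was tested on simulated data without tied values and against the 100-unit limit only. That run therefore does not cover tied genes or the background limit. Precision is limited by the number of arrays. The labels name separate pools, which the study calls biologically independent.

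The members and lists were chosen with earlier results of these data known. The text names all members, for other lists up to 4 genes called above in list order plus those not called above where 5 or fewer, and for cell type lists the 2 genes with the largest range. Other genes are said to be named after their values were seen. Of the list genes, 9 had no single-gene probe set and were not analysed here. Alternatives changed the limits, prior, probe set rule and normalization and left out each array. Python 3.11.15, numpy 2.4.6, pandas 2.3.3, matplotlib 3.10.9, R 4.3.3 and limma 3.58.1 were used.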

Additional observations from a re-analysis of the deposited data

How the results depend on the processing

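All 10 members stayed above the 100-unit limit under 11 alternatives, limits of 50 and 200 units included. Above the background limit the count of members was 10 under every alternative except the 99th percentile, where it was 7. Not all of these alternatives could lower a count. Each member had a single probe set, so the other probe set rules could not change its level. Limits of 50 units and of the 90th percentile are easier to pass. With the 99th percentile Klf5 turned to -0.15 (adjusted p = 0.101 by limma, with 0.000325 as the lowest over all settings). Klf10 stood at 0.07 (adjusted p = 0.307 by limma) and Klf13 at 0.18 (adjusted p = 0.0696 by limma, lowest 0.000152). The lowest adjusted p of Klf10, 1.91e-10 by limma, came from the default prior. There its tied values left a standard error of 2e-05, so that p-value is too small. The count was 10 with each replicate left out in turn, at adjusted p-values from 0.000611 to 0.00702 by limma. With the 99th percentile the count fell to 4 for the other KLF and SP factors, to 1 for the thick ascending limb, to 1 for the collecting duct and to 0 for the proximal tubule, lymphocyte and fibroblast lists. The smooth muscle and pericyte count became 1 with the default or a trended prior, with median centring and with quantile normalization, and 2 with the 90th percentile. Array shifts of the members moved by less than their median SD in all 18 alternatives, but their signs were not stable. The 18 include the other probe set rules, which could not change the shifts. Replicate 1 ran from -0.031 with quantile normalization to 0.026 with centring, replicate 2 from -0.013 to 0.0087, and replicate 3 from -0.022 to 0. With each array left out in turn, the counts ran from 6 to 7 for the other KLF and SP factors and from 19 to 23 for the targets. Centring and quantile normalization break ties, so the prior then rests on more genes. No paired analysis was possible because there is 1 group. Signal over background limits the calls of Klf5, Klf10 and Klf13, and the number of arrays limits the precision of all.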
